A study of Mus musculus with 8 samples.

Results

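Myostatin, the activins and the TGF-beta ligands form a family of secreted dimers that bind paired serine/threonine kinase receptors on the cell surface. A type II receptor binds the ligand and phosphorylates a type I receptor, which phosphorylates Smad2 and Smad3, and these enter the nucleus with Smad4 to change transcription. In skeletal muscle, myostatin made by the fibres is best known as a brake on muscle mass, follistatin binds and blocks myostatin and activins, and TGF-beta is a driver of matrix production. The 10 genes described here were chosen by name: the ligand genes Mstn and Inhba, the antagonist gene Fst, the type II receptor genes Acvr2a and Acvr2b, the type I receptor genes Acvr1b and Tgfbr1, and Smad2, Smad3 and Smad7. Each matched 1 row of the deposited count table, so they are 10 of 48709 genes. The choice was made with earlier results of these data known.

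Poly(A) RNA was sequenced from the gastrocnemius, the large calf muscle, of C57BL/6 mice aged 16 weeks. The control group (genotype Control, 4 libraries) carried a floxed glucocorticoid receptor gene, Nr3c1, and the other group (genotype GR(i)skm-/-, 4 libraries) carried the floxed gene with HSA-Cre-ERT2. This Cre recombinase is driven by the human skeletal actin promoter and is switched on by an oestrogen receptor ligand, so that the receptor is meant to be lost from myofibres while the other cells of the muscle keep it. No label states the ligand, its timing or whether each library came from a separate mouse. Libraries are called A to D (control) and E to H (labelled knockout) in the order of the table's columns, and each p-value reflects only the spread among these 8 libraries, which may be technical.

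Total counts ran from 36680510 to 52200305 per library. The targeted gene, Nr3c1, was low in only 2 of the 4 knockout-labelled libraries. On the scale of TMM-scaled CPM (read counts scaled for library size and composition), it was at 83.2 to 90.0 CPM in the control libraries, at 38.6 CPM in F and 42.8 CPM in H, but at 87.1 CPM in E and 96.7 CPM in G. The Nr3c1 difference between the groups did not pass edgeR's test (log2 fold change -0.39 ± 0.31 SE, adjusted p = 0.452) or an exact two-sided permutation test on CPM (p = 0.371, smallest possible 0.0286). The glucocorticoid-induced gene Fkbp5 was at 32.2, 6.68, 31.4 and 10.7 CPM in E, F, G and H, below every control library (44.5 ± 9.45 CPM, SD, n = 4). Its groups did not overlap, as in 16.7% of all genes, so the permutation p was the smallest possible, 0.0286. The Fkbp5 difference did not pass edgeR's test (log2 fold change -1.15 ± 0.52 SE, adjusted p = 0.214). The label, not the Nr3c1 level, defines the groups compared here, and results are also given without E and G. The 6 myofibre markers summed to 150600 to 192500 CPM in control and 140500 to 162300 CPM in the libraries labelled knockout. Acta1, skeletal muscle actin, fell (log2 fold change -0.33, edgeR adjusted p = 0.0176, all 4 below every control library), and the other 5 did not pass. The part of this marker shift in the results was not tested. In bulk muscle, fewer cells of a type and less RNA per cell cannot be told apart.

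None of the 9 testable pathway genes differed between the groups by edgeR's quasi-likelihood test with Benjamini-Hochberg adjustment over 14712 genes at a threshold of 0.05. In the same test 8.45% of all genes were called. The point estimates ran from -0.10 (Acvr2b and Smad3) to 0.39 (Tgfbr1) on the log2 scale, with a median of 0.08 beside -0.01 over all genes tested. Tgfbr1, Acvr2a and Smad2 had an unadjusted p under 0.05, 3 of 9 genes beside 27.1% of all genes. In no member did the 4 libraries of a group lie wholly above or below the other 4, a separation seen in 16.7% of all genes. DESeq2 (13.8% of genes called) and limma-voom (12.3%) each called 1 member, Tgfbr1. It was also called without a filter on low counts (1266 of 27046 genes called). Leaving out control library D (890 of 14885 genes) or library E (1184 of 14886) called Tgfbr1 too. Scaling by library size alone called Smad2 (1341 of 14712 genes). No member was called when the dependence of log2 counts on transcript GC content was removed per library (GC trend removed, 4.64% of genes), without E and G (1.49%), or without control library A (4.06%) or B (12.1%). Of the 6 members with a positive log2 fold change, 5 have a transcript GC content of 38.1% to 44.9% and Smad7 has 56.9%, while the 3 with a negative value have 53.1% to 54.4%. The part of GC content in these differences was not tested beyond the refit without its trend.

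**Figure D1:**
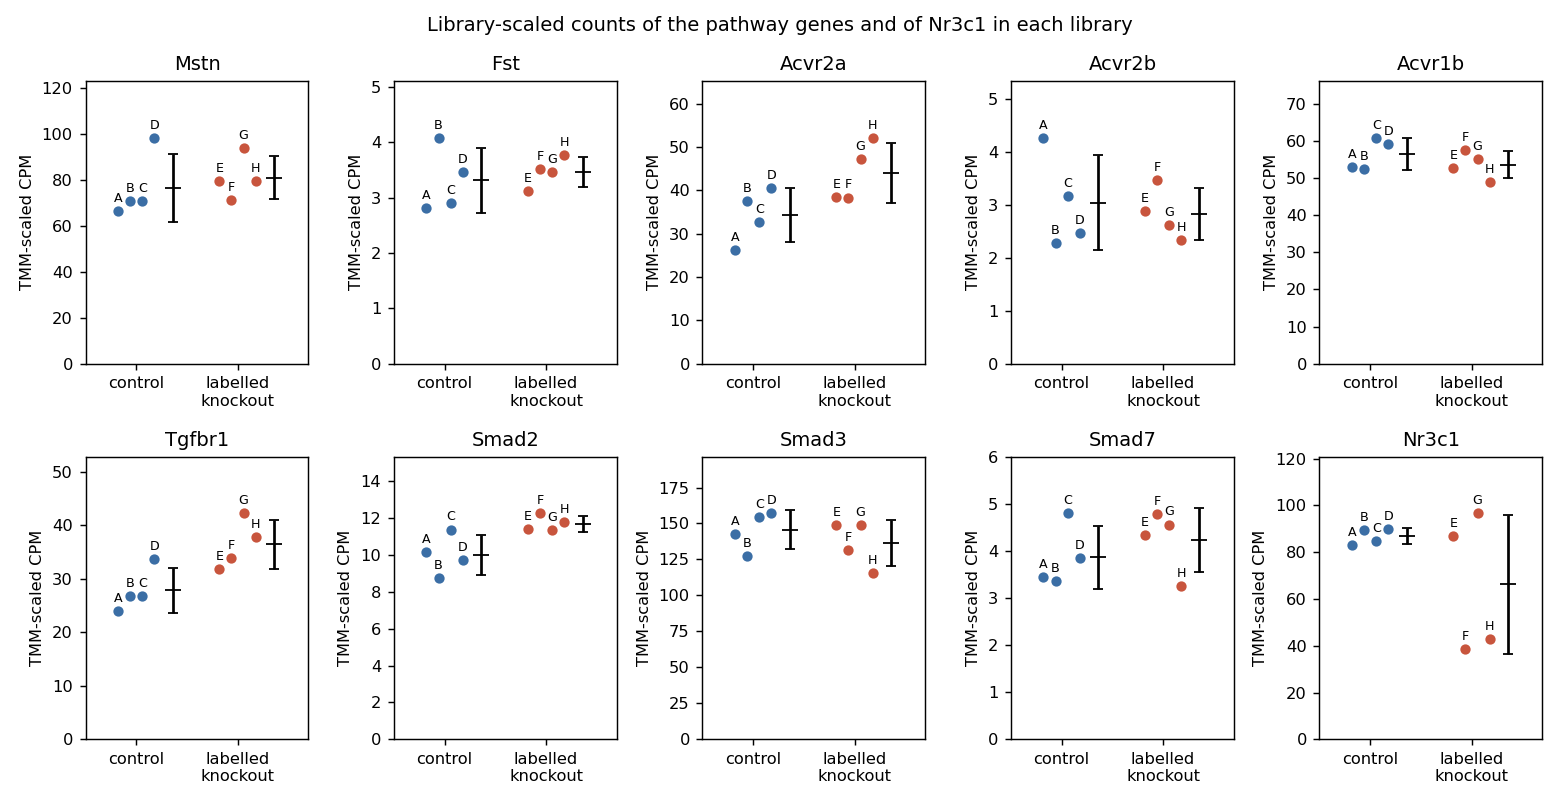
TMM-scaled CPM (vertical axes, starting at 0) of the 9 testable pathway genes and Nr3c1 in control libraries A to D (blue) and in libraries E to H labelled knockout (red), with the mean and SD of each group in black. The groups overlap in every panel, and Nr3c1 is low in F and H only.

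The members spanned a wide range of abundance. Per kilobase of annotated exon, Mstn was the most abundant at a mean of 29.1 CPM per kb over the 8 libraries, followed by Smad3 at 25.4, Acvr1b at 12.5, Acvr2a at 6.89, Tgfbr1 at 4.92, Smad2 at 1.23, Smad7 at 0.898, Acvr2b at 0.746 and Fst at 0.737. The libraries' ranges overlapped between Mstn and Smad3, between Acvr2a and Tgfbr1, and between neighbours from Smad2 down to Fst. Ranges did not overlap between Smad3 and Acvr1b, between Acvr1b and Acvr2a, or between Tgfbr1 and Smad2. Thus the ligand Mstn stood far above its antagonist Fst, and within each pair of related genes 1 partner held most of the transcript: Acvr2a over Acvr2b and Smad3 over Smad2.

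**Figure D2:**
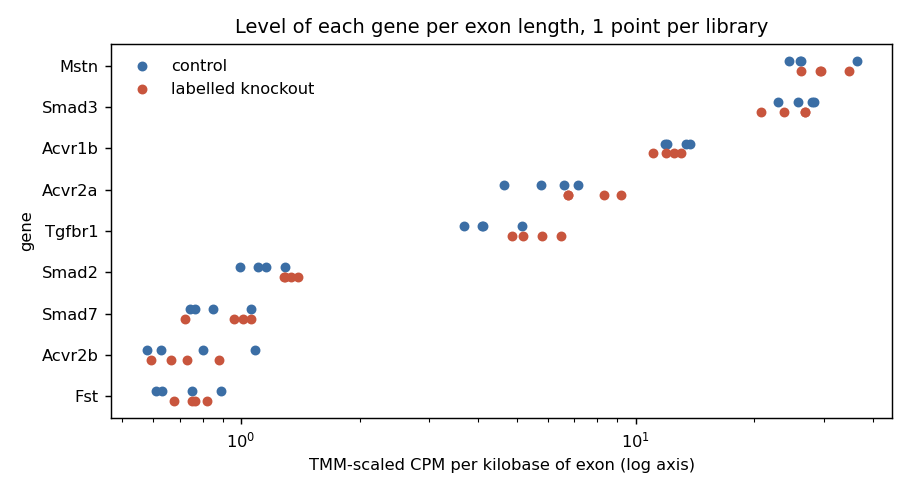
TMM-scaled CPM per kilobase of exon (horizontal log axis) for each testable pathway gene (vertical axis, ordered by mean level), with 1 point per library, control in blue and labelled knockout in red. Mstn and Smad3 lie highest, between 20.8 and 36.4 CPM per kb, and Smad7, Acvr2b and Fst lowest, between 0.578 and 1.09.

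Promoter sequences of the ligand and of receptor genes differed in base composition. The RefSeq table on GRCm38.p6 (the assembly of mm10) holds a promoter, 250 bases before to 50 after the start, for 7 of the 10 members. The 250 upstream bases are printed for Mstn, the ligand on which the comparison centres, and for Tgfbr1 and Acvr2a, the receptor genes with the lowest p-values among the 4 member receptors. All are on the plus strand and read 5′ to 3′, at chr1:53061390-53061639, chr4:47352972-47353221 and chr2:48813859-48814108. Capitals mark CG dinucleotides.
Mstn: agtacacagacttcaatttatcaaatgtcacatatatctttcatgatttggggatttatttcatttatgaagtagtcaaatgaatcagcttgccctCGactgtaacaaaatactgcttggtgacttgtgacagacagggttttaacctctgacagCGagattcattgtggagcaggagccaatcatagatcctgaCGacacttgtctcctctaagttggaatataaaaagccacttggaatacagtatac
Tgfbr1: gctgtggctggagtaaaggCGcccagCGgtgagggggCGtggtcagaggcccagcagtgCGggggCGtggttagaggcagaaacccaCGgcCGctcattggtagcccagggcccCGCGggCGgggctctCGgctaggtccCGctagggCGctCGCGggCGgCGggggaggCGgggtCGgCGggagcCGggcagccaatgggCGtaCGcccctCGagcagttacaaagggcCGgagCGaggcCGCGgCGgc
Acvr2a: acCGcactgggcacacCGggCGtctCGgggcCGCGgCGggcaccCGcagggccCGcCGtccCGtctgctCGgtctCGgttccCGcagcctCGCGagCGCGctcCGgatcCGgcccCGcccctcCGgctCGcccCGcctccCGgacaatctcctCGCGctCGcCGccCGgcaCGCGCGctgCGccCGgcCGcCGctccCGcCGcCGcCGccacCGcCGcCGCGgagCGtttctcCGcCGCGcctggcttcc
The Mstn stretch holds 3 CG dinucleotides and has a GC content of 38.4%, against 29 and 74.8% for the Tgfbr1 stretch printed and 49 and 82.0% for Acvr2a. The table holds a second Tgfbr1 promoter, at chr4:47385966-47386265, whose 300 bases have a GC content of 52.0% and 3 CG dinucleotides, against 41.3% and 6 for the 300 bases of Mstn. The promoter of the other ligand gene, Inhba, has 47.7% and 7. Over all promoters the medians are 52.7% and 7, and 47.9% of promoters hold at most the CG count of Mstn. A CAGACA motif, a core bound by Smad3 and Smad4, begins at position -120 from the Mstn start and at -203 from that second Tgfbr1 start, and a TATAAA lies at -29 from the Mstn start. Searched on both strands, CAGACA is in 6913 and TATAAA in 4473 (13.6%) of the 32851 promoters of the table. The glucocorticoid response element searched for (AGAACA, any 3 bases, TGTTCT) is in 0.00913% of those promoters and its 6-base arm TGTTCT in 19.0%. Neither was found in the 8 member promoters, which says only that these letters are not in these windows.

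Among the ligands and their antagonist, Mstn did not pass the test. Mstn (ENSMUSG00000026100, chromosome 1, 53061640 to 53068079, plus strand of mm10) encodes myostatin. Its level was 66.3, 70.8, 71.0 and 98.4 CPM in the control libraries (A to D) and at 79.4, 71.1, 93.7 and 79.7 CPM in E to H. Control library D was the highest of all 8, and each library labelled knockout lay between the control extremes. The means were 76.6 ± 14.7 and 81.0 ± 9.39 CPM (SD, n = 4 each), and the log2 fold change was 0.08 ± 0.13 (SE, edgeR adjusted p = 0.728). Its 95% interval of -0.20 to 0.36 corresponds to 0.868-fold to 1.29-fold. The sign turned to -0.02 without libraries E and G (adjusted p = 0.95) and to -0.17 with the GC trend removed (adjusted p = 0.454). The Mstn transcript has a GC content of 38.1%, the lowest of the members.

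Fst (ENSMUSG00000021765, chromosome 13, 114452290 to 114458951) encodes follistatin. It was at 2.81, 4.08, 2.89 and 3.45 CPM in A to D and at 3.11, 3.51, 3.45 and 3.76 CPM in E to H. All 4 libraries labelled knockout lay within the control range, and the log2 fold change was 0.06 ± 0.14 (SE, 95% interval -0.25 to 0.38, edgeR adjusted p = 0.812). Fst shares exon sequence with Gm47040 on the opposite strand, and whether strand was used in counting is not given. Inhba, which encodes the activin A subunit, was barely detected. It had 4, 9, 2 and 8 counts in A to D and 4, 8, 7 and 1 in E to H, below the filter on low counts, so it was not tested. Summed over the groups and scaled by total counts, the ratio was 0.819 (95% exact interval 0.427 to 1.56, covering counting error only).

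The receptors divided between those with a higher mean in the libraries labelled knockout and those without. Tgfbr1 (ENSMUSG00000007613, chromosome 4, 47353222 to 47414931), the type I receptor of TGF-beta, was at 24.1, 26.7, 26.8 and 33.7 CPM in A to D and at 31.7, 33.9, 42.2 and 37.8 CPM in E to H. Libraries F, G and H exceeded every control library, and E lay below control library D. The log2 fold change was 0.39 ± 0.12 (SE, 95% interval 0.13 to 0.64, edgeR adjusted p = 0.0625). It passed by DESeq2 (adjusted p = 0.0184), by limma-voom (0.0469), without a filter on low counts (0.0474), without control library D (0.0271) and without library E (0.0458). The value was 0.37 without E and G (adjusted p = 0.166) and 0.20 with the GC trend removed (adjusted p = 0.265).

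Acvr2a (ENSMUSG00000052155, chromosome 2, 48814109 to 48903269), a type II receptor for activins and myostatin, was at 26.4, 37.5, 32.7 and 40.6 CPM in A to D and at 38.4, 38.4, 47.3 and 52.2 CPM in E to H. Libraries G and H exceeded every control library, while E and F lay below control library D. The log2 fold change was 0.36 ± 0.14 (SE, 95% interval 0.04 to 0.68, edgeR adjusted p = 0.141), and it was 0.15 with the GC trend removed. An exon of Acvr2a overlaps Orc4 on the opposite strand. Its relative Acvr2b (ENSMUSG00000061393, chromosome 9), the other type II receptor of myostatin, was at 4.27, 2.27, 3.15 and 2.46 CPM in A to D and at 2.88, 3.47, 2.62 and 2.33 CPM in E to H. Control library A was the highest of the 8, and all libraries labelled knockout lay within the control range. The log2 fold change of Acvr2b was -0.10 ± 0.21 (SE, adjusted p = 0.79 by edgeR), and it turned to 0.11 without library A and to 0.01 with the GC trend removed.

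Acvr1b (ENSMUSG00000000532, chromosome 15, 101174067 to 101213684), which encodes the type I receptor ALK4 used by activins and myostatin, had the log2 fold change nearest 0 of the 4 member receptors. It was at 53.0, 52.5, 60.9 and 59.2 CPM in A to D and at 52.7, 57.5, 55.2 and 48.9 CPM in E to H. Library H alone lay outside the control range, below it. The log2 fold change was -0.07 ± 0.07 (SE, 95% interval -0.24 to 0.09, edgeR adjusted p = 0.552). The value was 0.02 with the GC trend removed and 0.00087 with scaling by library size alone.

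Of the 3 Smad genes among the members, none passed the test. Smad2 (ENSMUSG00000024563, chromosome 18, 76241580 to 76310963) was at 10.2, 8.76, 11.4 and 9.73 CPM in A to D and at 11.4, 12.2, 11.3 and 11.7 CPM in E to H. Libraries E, F and H exceeded every control library, and G lay just under control library C. The log2 fold change was 0.22 ± 0.09 (SE, 95% interval 0.03 to 0.42, edgeR adjusted p = 0.134). It passed with scaling by library size alone (0.30, adjusted p = 0.0388) and was 0.14 with the GC trend removed.

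Smad3 (ENSMUSG00000032402, chromosome 9, 63646767 to 63757994) had 143, 128, 155 and 157 CPM in A to D and at 149, 132, 149 and 115 CPM in E to H. Library H was the lowest of the 8 and the other libraries labelled knockout lay within the control range. The log2 fold change was -0.10 ± 0.10 (SE, 95% interval -0.31 to 0.12, edgeR adjusted p = 0.551). The inhibitory Smad7 (ENSMUSG00000025880, chromosome 18, 75367529 to 75395935), itself induced by TGF-beta as a feedback brake, was at 3.45, 3.37, 4.81 and 3.85 CPM in A to D and at 4.36, 4.80, 4.57 and 3.26 CPM in E to H. The groups overlapped, with the highest value in control library C and the lowest in library H (log2 fold change 0.13 ± 0.16 SE, edgeR adjusted p = 0.626).

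Ratios of partner genes, taken within each library per kilobase of exon, cancel any scaling of the library. The 4 pairs were chosen after the values were seen and are given without a test. The Smad3 to Smad2 ratio was 22.3, 23.1, 21.6 and 25.6 in A to D and 20.7, 17.1, 20.9 and 15.6 in E to H, so every library labelled knockout lay below every control library. The Tgfbr1 to Acvr1b ratio was 0.307, 0.344, 0.298 and 0.385 in A to D and 0.408, 0.399, 0.517 and 0.523 in E to H, all above control. The Acvr2a to Acvr2b ratio (8.55 ± 3.49 in control, 11.2 ± 3.49 in the libraries labelled knockout, SD, n = 4 each) and the Mstn to Fst ratio (39.9 ± 7.84 and 39.9 ± 5.64) overlapped between the groups. Transcript GC content is 44.9% for Smad2 and 53.1% for Smad3, 41.0% for Tgfbr1 and 53.5% for Acvr1b, and 39.9% for Acvr2a and 54.4% for Acvr2b. With the GC trend removed the Smad3 to Smad2 and Tgfbr1 to Acvr1b ratios overlapped too, at 19.9 to 24.2 in control and 17.2 to 22.2 otherwise for Smad3 to Smad2, and at 0.335 to 0.414 and 0.362 to 0.458 for Tgfbr1 to Acvr1b.

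**Figure D3:**
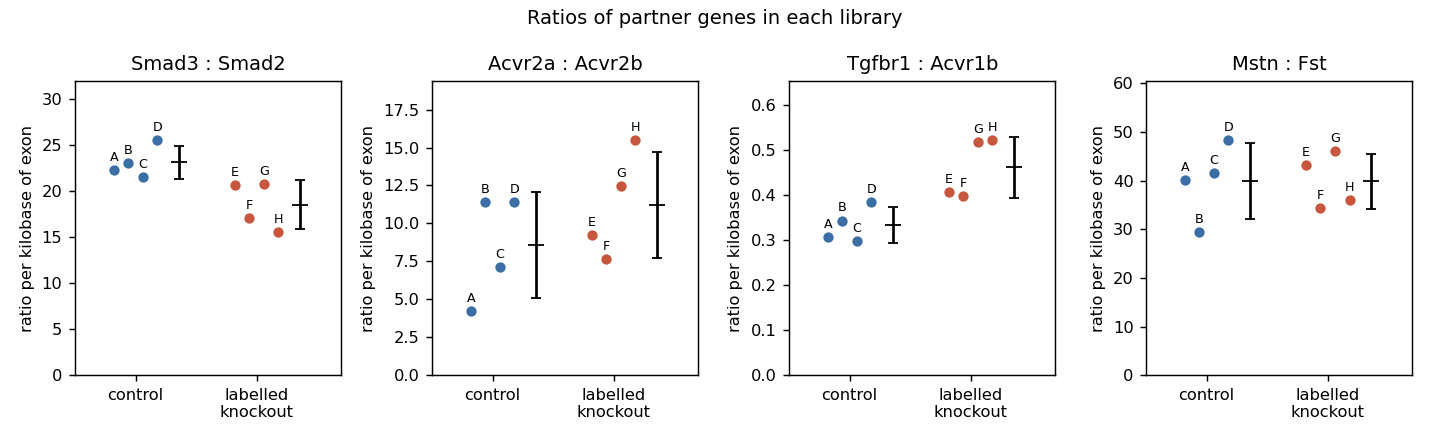
Ratio of TMM-scaled CPM per kilobase of exon (vertical axes, starting at 0) for 4 pairs of partner genes in control libraries A to D (blue) and libraries E to H labelled knockout (red), with the mean and SD of each group in black. The Smad3 to Smad2 and Tgfbr1 to Acvr1b ratios separate the groups as plotted, and the other pairs overlap. With the GC trend removed (not plotted) the groups overlap for every pair.

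The rest of the pathway was read from a list of 70 further genes, of which 66 were testable: 6 were higher, 5 were lower and 55 did not pass, beside 4.04% higher and 4.41% lower over all genes. Their median log2 fold change was -0.06. Among 6 further ligand genes, Gdf11 rose and Inha fell (33.3%, beside 8.45% of all genes). Gdf11 encodes the closest relative of myostatin. It was at 13.8, 12.2, 10.4 and 12.9 CPM in A to D and at 20.8, 14.2, 19.6 and 16.0 CPM in E to H (log2 fold change 0.52 ± 0.13 SE, edgeR adjusted p = 0.0351). Every library labelled knockout exceeded every control library, and E and G, where Nr3c1 was not low, were the highest. Inha, the inhibin alpha subunit gene, whose product turns activin subunits into the antagonist inhibin, was at 2.44, 3.49, 2.63 and 2.55 CPM in A to D and at 1.296, 1.501, 1.5 and 1.69 CPM in E to H (-0.89 ± 0.17 SE, edgeR adjusted p = 0.0117). The groups did not overlap.

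Of 14 genes of extracellular regulators, 13 were testable, 1 rose and 1 fell (15.4%, beside 8.45% of all genes). Dcn encodes decorin, a matrix proteoglycan that binds TGF-beta and myostatin. It was at 370, 362, 328 and 388 CPM in A to D and at 487, 440, 507 and 486 CPM in E to H (log2 fold change 0.41 ± 0.07 SE, edgeR adjusted p = 0.0103). Ltbp4, a latent TGF-beta binding protein, fell from 56.1 ± 3.82 to 43.9 ± 1.57 CPM (SD, n = 4 each; log2 fold change -0.35, edgeR adjusted p = 0.0117). Neither gene's groups overlapped. Of 6 markers of fibro-adipogenic progenitors, which make decorin, 2 rose and none fell by edgeR's test (33.3%, beside 8.45% of all genes). The log2 fold change was positive for 4 and negative for 2 of them. Their summed level was 160 to 227 CPM in control and 184 to 251 CPM in the libraries labelled knockout. These ranges overlapped. Col15a1 and Ly6a, the 2 with a negative value, had the highest control means (70.1 and 46.9 CPM). For 2 of the 6, Pdgfra and Dpp4, every library labelled knockout exceeded every control library. Such separation, in either direction, was seen in 16.7% of all genes. The part of these markers in the result was not tested.

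Of 4 further receptor genes none passed. The lowest p-values belonged to Acvr1c, which encodes the type I receptor ALK7 (0.873 ± 0.578 against 1.76 ± 0.414 CPM, log2 fold change 1.01 ± 0.39 SE, edgeR adjusted p = 0.133), and Bambi, a decoy receptor (-0.28 ± 0.22 SE, adjusted p = 0.434). Acvr1c passed by limma-voom (adjusted p = 0.0356) and without control library B (0.0174). Of 13 genes of Smads and their regulators, Smurf2 alone passed (7.69%, near the 8.45% of all genes). Smurf2, a ubiquitin ligase that targets Smads and TGF-beta receptors, was at 29.7, 29.6, 28.8 and 33.99 CPM in A to D and at 35.7, 35.1, 39.7 and 38.9 CPM in E to H (0.29 ± 0.07 SE, edgeR adjusted p = 0.0361). Its groups did not overlap.

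All 8 genes listed as TGF-beta targets had a negative log2 fold change, as did 7606 of all 14712 genes tested. Their median was -0.45, and 2 passed the test (25.0%, beside 8.45% of all genes). Smad7, also induced by TGF-beta but listed among the members, had a positive log2 fold change of 0.13 and did not pass. The list of 8 was chosen with earlier results of these data known. Of the 13 genes of Smads and their regulators, 7 had a positive value and 6 a negative one. Skil (0.13) and Pmepa1 (0.05) were among the positive, and neither passed. Ctgf, a matricellular protein gene, was at 27.5, 30.0, 20.9 and 20.3 CPM in A to D and at 16.4, 18.6, 15.8 and 18.2 CPM in E to H (log2 fold change -0.52 ± 0.13 SE, edgeR adjusted p = 0.0333). Col1a1, a chain of type I collagen, was at 268, 313, 158 and 303 CPM in A to D and at 95.8, 81.1, 99.6 and 172 CPM in E to H (-1.22 ± 0.30 SE, edgeR adjusted p = 0.0488). The groups separated for Ctgf, while for Col1a1 library H exceeded control library C. Markers of several matrix-making cells moved, in both directions. Of 5 tenocyte markers 2 fell and none rose, with a summed level of 250 to 394 CPM in control and 178 to 233 CPM otherwise. Of 5 smooth muscle and pericyte markers 3 fell: Myh11 (log2 fold change -0.93, edgeR adjusted p = 0.00212), Acta2 (-0.90, 0.00291) and Notch3 (-0.34, 0.0335). All 5 summed to 519 to 623 CPM in control and 458 to 526 CPM otherwise, mostly from Rgs5, which did not pass (-0.03). Fibro-adipogenic progenitors also make matrix. Of their 6 markers 2 rose (Dpp4 and Pi16) and none fell by edgeR's test, while 2 had a negative log2 fold change. Their part in the result was not tested.

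The parallel BMP arm, which signals through Smad1, Smad5 and Smad9 and in muscle opposes myostatin, held 4 calls. Of 25 genes 22 were testable, 3 rose and 1 fell (18.2%, beside 8.45% of all genes), with a median log2 fold change of 0.01. Bmpr1b, a type I BMP receptor, was at 6.09, 5.05, 6.10 and 6.25 CPM in A to D and at 9.39, 8.94, 9.72 and 10.0 CPM in E to H (log2 fold change 0.70 ± 0.09 SE, edgeR adjusted p = 0.00291). The groups lay well apart. Bmpr2, a type II receptor, rose from 73.4 ± 6.94 to 104 ± 18.1 CPM (0.50, edgeR adjusted p = 0.0286), and Smad5 from 39.8 ± 1.87 to 47.0 ± 3.06 CPM (0.24, edgeR adjusted p = 0.0486), with no overlap for either (SD, n = 4 each).

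Eng, an endothelial co-receptor of the family, fell from 53.5 ± 3.35 to 40.2 ± 4.04 CPM (SD, n = 4 each; log2 fold change -0.41, edgeR adjusted p = 0.0137), and shares exon sequence with Fpgs on the opposite strand. Of 5 endothelial markers 1 fell and none rose by edgeR's test. The log2 fold change was negative for 3 and positive for 2 of them. Their summed level was 293 to 326 CPM in control and 276 to 298 CPM otherwise, and these ranges overlapped. All 5 Schwann cell markers fell (126 to 227 CPM, then 39.6 to 60.6 CPM summed). Of 5 macrophage markers 1 rose, and all 5 had a positive log2 fold change (26.2 to 46.7 CPM, then 40.2 to 56.2 CPM summed). Of 5 satellite cell markers 0 passed edgeR's test (1 at an unadjusted p under 0.05). Their summed level was 37.1 to 41.6 CPM in control and 27.5 to 33.1 CPM otherwise, without overlap. Most of that sum came from Cdh15, at a mean of 24.8 CPM in control and 18.8 CPM in the libraries labelled knockout. Cdh15 alone of the 5 separated the groups, as 16.7% of all genes did. Directions were mixed, with 3 markers negative and 2 positive, Myf5 (0.25) and Calcr (0.41). The part of these cells in the results was not tested.

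**Figure D4:**
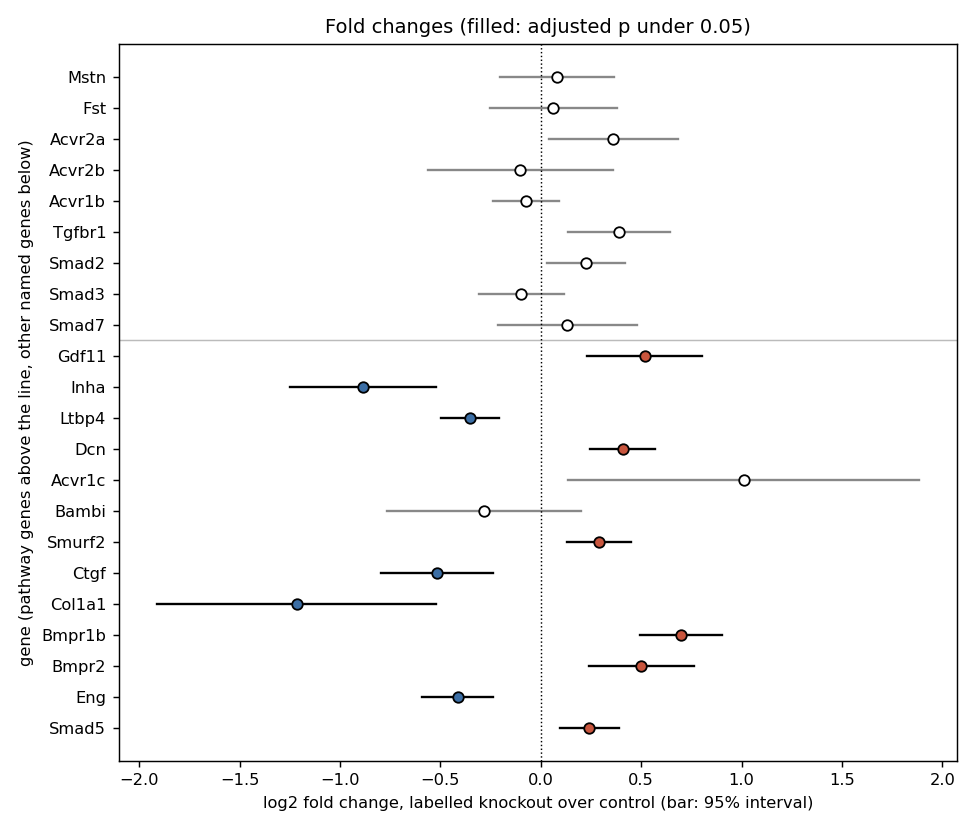
Log2 fold change, labelled knockout over control (horizontal axis), with its 95% interval for the 9 testable pathway genes (above the line) and the 13 other named pathway genes (below). Filled points passed edgeR's test at an adjusted p of 0.05, red higher and blue lower, and none of the points above the line is filled.

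The 11 calls differed in how firmly they stood. That of Bmpr1b held under each of 17 alternatives tried, and was the only one that held without libraries E and G (0.69, adjusted p = 0.0387). Without those libraries the highest adjusted p of the other 10 belonged to Col1a1, at 0.247, and the value of Gdf11 went from 0.52 to 0.30. The others stayed nearer their values in all 8 libraries: Inha at -0.80, Ltbp4 at -0.33, Dcn at 0.36, Smurf2 at 0.28, Ctgf at -0.42, Col1a1 at -1.04, Bmpr2 at 0.55, Eng at -0.36 and Smad5 at 0.28. With the GC trend removed 4 calls held (Gdf11, Inha, Ctgf and Bmpr1b) and 7 ended. Among these, Dcn went to 0.14, Ltbp4 to -0.19, Bmpr2 to 0.31, Eng to -0.27, Smad5 to 0.15, Smurf2 to 0.25 and Col1a1 to -1.07. Leaving out 1 library ended the calls of Gdf11 (any but F, highest adjusted p = 0.111), Smurf2 (A, C, F, G or H, 0.118), Ctgf (A, E, F, G or H, 0.105), Col1a1 (any but C or H, 0.135), Bmpr2 (A, C, G or H, 0.0939), Smad5 (any but B or E, 0.137) and Eng (G, 0.056). Other scalings, tests and filters ended those of Ltbp4 and Ctgf (library size alone), Col1a1 (library size alone and no filter) and Smad5 (upper-quartile scaling and no filter).

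**Figure D5:**
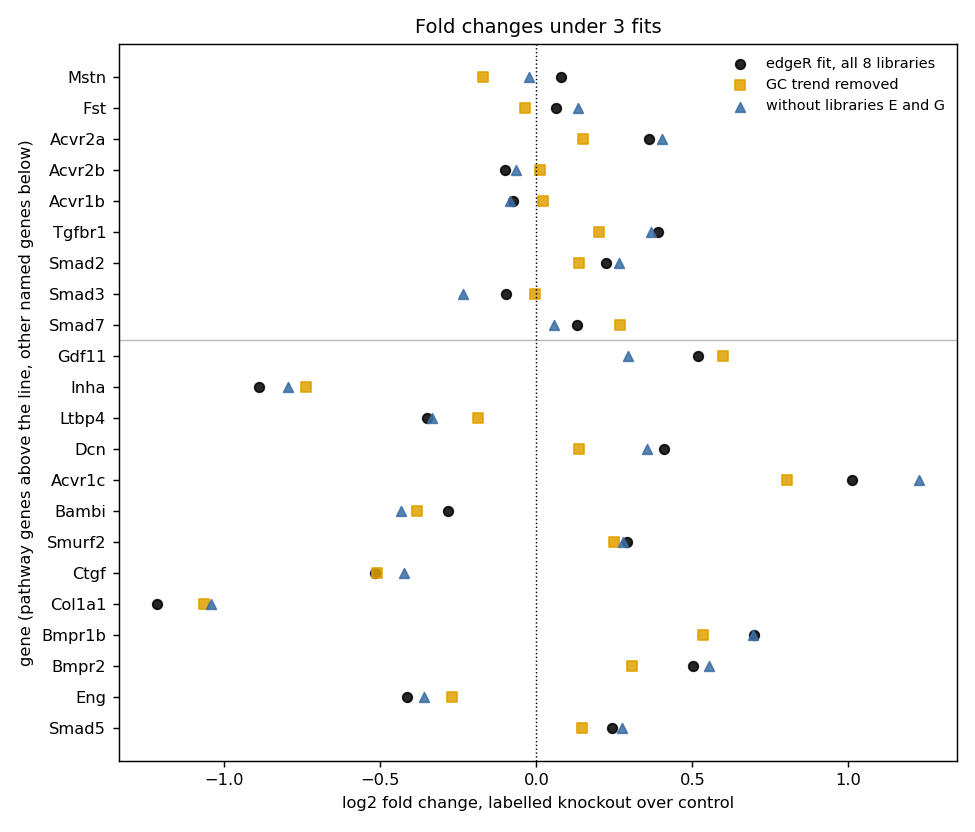
Log2 fold change, labelled knockout over control (horizontal axis), of the 9 testable pathway genes (above the line) and 13 other named genes (below) in edgeR's fit to all 8 libraries (black circles), with the GC trend removed (yellow squares) and without libraries E and G (blue triangles). Tgfbr1 moves from 0.39 to 0.20 and Dcn from 0.41 to 0.14 when the GC trend is removed, while Bmpr1b stays between 0.54 and 0.70.

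The 5 genes whose pattern was most like that of Mstn were Rab10, Nt5dc3, Kctd11, Slc38a4 and Erp44. Likeness was the root mean square difference of log2 CPM over the 8 libraries after each gene was centred on its own mean, and it was 0.085 for Rab10 and 0.096 for Erp44. Rab10 was at 286, 306, 302 and 396 CPM in A to D and at 335, 326, 399 and 395 CPM in E to H. As the choice by likeness to Mstn entails, control library D was the highest control library for each of the 5, so this is a description only.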

How the data were processed

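The authors deposited raw read counts for 48709 Ensembl genes, with no normalisation. Per the series' design text and the submitters' processing notes, base calls were converted with bcl2fastq 2.17.1.14, reads aligned to mm10 with TopHat version 2 and counted with HOMER. No source used here gives the annotation or strand setting, while the labels' protocols describe a stranded poly(A) kit and 700 ng of RNA. Columns were assigned to groups by name. Genes were kept with filterByExpr (count of about 10, total of 15), which left 14712, scaled by TMM and compared with edgeR 4.0.16's robust quasi-likelihood test (R 4.3.3, limma 3.58.1) with no covariate, then adjusted by Benjamini-Hochberg. SE was derived from the log2 fold change and its F statistic, and intervals use the fit's degrees of freedom. Log2 CPM used a prior count of 2. The fit was tested on simulated data. Exon lengths, coordinates and transcript GC came from GENCODE M21 (14687 tested genes had GC). The GC trend was removed by lowess (span 0.3). DESeq2 1.42.0, limma-voom, other scalings and filters, and each library left out were alternatives. The closest pair of libraries in a group differed by a chi-square to degrees-of-freedom ratio of 13.1, so none was a copy. Named genes were the members, Nr3c1, Fkbp5 and each called gene of 6 pathway lists (or the 2 lowest p-values in a list with none). They also included the 5 nearest to Mstn among genes of mean log2 CPM of at least 1, predicted genes skipped. Marker genes (Acta1, Myh11, Acta2, Notch3, Rgs5, Dpp4, Pi16, Pdgfra, Col15a1, Ly6a, Cdh15, Myf5, Calcr), Skil, Pmepa1 and overlapping genes are mentioned beside them. These were chosen after their values were seen. Members, lists, markers and tests were chosen with earlier results of these data known.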

Additional observations from a re-analysis of the deposited data

Results flagged for a closer look

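Among 56 sets of 4 libraries examined (CPM of each named gene and the 4 ratios, by group), 3 had 1 library far from the others by Dixon's gap criterion at 95%, where chance gives about 1 in 20. Mstn was at 98.4 CPM in control library D, against 66.3 to 71.0 CPM in the other control libraries. Without D its log2 fold change was 0.22. Bambi was at 2.09 CPM in control library B, against 1.21 to 1.29 CPM. Bmpr1b was at 5.05 CPM in control library B, against 6.09 to 6.25 CPM.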

How the results depend on the processing

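The count of members called was 0 under 11 of 17 alternatives. It was 1 with library size alone (Smad2), with no filter, by DESeq2 and by limma-voom (Tgfbr1 in each), and 0 to 1 with 1 library left out. Pathway list calls went from 11 to 4 with the GC trend removed, to 1 without libraries E and G (an alternative added after the data were seen) and to 4 to 11 with 1 library left out (5 without A, 7 without F, 4 without G, 6 without H). Calls over all genes went from 1243 to 2026 by DESeq2, 683 with the GC trend removed, 226 without E and G and 373 to 1794 with 1 library left out (606 without A, 612 without C, 642 without F, 373 without G, 699 without H); library size alone moved the higher share from 47.8% to 69.8%. Nr3c1 was at -1.09 without E and G, which the choice of those libraries by their Nr3c1 level fixes, so no test is given. Signs turned for Mstn (-0.1715 with the GC trend removed, -0.024 without E and G), Fst (-0.0363 with the GC trend removed, -0.005 without A), Acvr2b (0.013 and 0.1077 under the same changes) and Acvr1b (0.0224 with the GC trend removed, 0.00087 with library size alone). The other member values kept their sign. The cause was not tested. No paired analysis was possible because the columns carry no replicate number of the labels. Low counts limit Inhba, Fst, Acvr2b and Smad7.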
